A study of Drosophila virilis and Drosophila willistoni and Drosophila miranda with 119 samples.

Results

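D. santomea and D. yakuba are sister species of fruit fly in the melanogaster subgroup, and their early embryos were set against each other at 2 stages. The comparison covered every gene of the wider ortholog table with a value in both species and at least 1 FPKM in any of 4 columns (D. santomea and D. yakuba, each at stage 2 and stage 5). FPKM gives the sequenced fragments of a gene per length of its transcript and per size of the library. Of 17674 genes in the table, 11507 had values in both species and 7203 reached 1 FPKM. In all 11507 genes the values of both species were tied to the same D. yakuba gene identifier. The 4 groups were D. santomea at stage 2, D. yakuba at stage 2, D. santomea at stage 5 and D. yakuba at stage 5, with 3 single embryos each, 12 of the 119 embryos of 14 species in the series. All were untreated embryos, from which polyA RNA was extracted with TRIzol and made into Illumina libraries. No strain is named in the labels used here. The 3 embryos of a group stand in 1 value per gene, so no spread between embryos can be given.

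At stage 2 the zygotic genome is largely silent, and nearly all mRNA was loaded into the egg by the mother. At stage 5 the blastoderm cellularizes, part of the maternal mRNA has been degraded, and the embryo transcribes its own patterning genes. Stage 2 levels are therefore taken as the maternal supply, and stage 5 levels hold both the maternal remainder and zygotic mRNA.

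Differences in the material go with the species. Per the labels, the raw D. santomea reads of both stages held some D. melanogaster RNA, and those of D. yakuba did not. The study's design text also says that D. yakuba stage 5 data stand in an earlier data set. Either feature and the species cannot be told apart in this design. Each column held 5966 (D. santomea) and 5999 (D. yakuba) genes at 1 FPKM or more at stage 2, and 6598 (D. santomea) and 6576 (D. yakuba) at stage 5. The sequencing depth is unknown. Marker mRNAs of other tissues were read as a check. None of 20 eggshell and follicle cell genes reached 1 FPKM, and their summed level at stage 2 was 0.0524 FPKM in D. santomea and 0.127 FPKM in D. yakuba. Of the lists of yolk and fat body, muscle, neuron, gut, testis and hemocyte genes, 1 of 10, 4 of 13, 2 of 10, 1 of 6, 3 of 10 and 3 of 11 reached it. At stage 5 the summed level was 403 FPKM in D. santomea and 650 FPKM in D. yakuba for the muscle genes, 198 FPKM in D. santomea and 166 FPKM in D. yakuba for the hemocyte genes, and 65.4 FPKM in D. santomea and 118 FPKM in D. yakuba for the yolk and fat body genes. The testis genes summed to 128 FPKM in D. santomea and 96.2 FPKM in D. yakuba at stage 2, and the part of such mRNAs in the differences was not tested.

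The landmark genes put the 4 columns at their labelled stages. The mRNA of bcd, the maternal determinant of the anterior, had 61.2 FPKM in D. santomea and 57.8 FPKM in D. yakuba at stage 2, and 0.646 and 0.639 FPKM in the same order at stage 5. The germ plasm mRNA osk had 308 FPKM in D. santomea and 421 FPKM in D. yakuba at stage 2, and 1.91 FPKM in D. santomea and 1.04 FPKM in D. yakuba at stage 5. The gap gene Kr was below 0.2 FPKM at stage 2 in both and had 156 FPKM in D. santomea and 161 FPKM in D. yakuba at stage 5. In all of these genes both species lay close together, and so did the mesoderm gene twi (286 and 246 FPKM at stage 5), the amnioserosa gene zen (40.2 and 36.9 FPKM) and the pair-rule gene eve (25.6 and 31.7 FPKM), with D. santomea given before D. yakuba. The pigmentation genes y and t, at 0.146 and 0 FPKM in D. santomea and 0.458 and 0.0323 FPKM in D. yakuba at stage 5, were nearly silent.

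The first question was how far the maternal mRNA supply of the species had diverged. At stage 2 the median absolute difference over the 7203 genes was 0.22 on the log2(FPKM+1) scale with centred columns, and 75.2% of genes differed by less than 0.5. By at least 2-fold (a difference of 1), 355 genes (4.93%) were higher and 395 (5.48%) lower in D. santomea, and by at least 4-fold 121 (1.68%) and 159 (2.21%). The few genes past 4-fold reached from mRNA that was abundant in one species to mRNA at the limit of measurement in the other. With 1 value per species, these counts carry no test. A limma fit took its spread from D. erecta, D. melanogaster, D. simulans, D. sechellia and D. mauritiana, and assumed that the single columns of D. santomea and D. yakuba vary likewise. It called 32 genes higher (0.596%) and 43 lower (0.801%) in D. santomea among 5368 tested (adjusted p under 0.05 and at least 2-fold). Since these species share ancestry, this fit asks whether the pair stands further apart than such species do, gene by gene. For a gene near 0 in all the relatives, the fit takes its spread from values near 0. Its adjusted p then cannot say how far expressed levels of that gene vary between species. With 1 FPKM or more in all columns of the fit, only 11 of the 75 stage 2 calls could be tested, and 2 remained.

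Several mRNAs were at a high level in the eggs of D. santomea and at or near 0 in all the species set beside it. CG4757 had 1333 FPKM at stage 2 in D. santomea and was listed at 0 in D. yakuba, with at most 0.0153 FPKM in the 5 related species (limma adjusted p = 0.000342). Syn2, a syntrophin of the dystrophin complex, had 260 FPKM in D. santomea and was listed at 0 in D. yakuba (limma adjusted p = 0.000473). CG4133 had 145 FPKM in D. santomea and was likewise listed at 0 in D. yakuba. The levels of CG4757 and Syn2 are uncertain, since genes with close identifier numbers, Tctp and Cdk4, differed in the opposite direction. All 3 mRNAs were at or near 0 in D. melanogaster too, at no more than 0.0652 FPKM. The cyclic nucleotide phosphodiesterase Pde8 had 37.6 FPKM in D. santomea and 0.098 FPKM in D. yakuba, a difference of 5.14 on the log2 scale (limma SE 0.31, adjusted p = 0.000738). In all, 10 of 5368 genes were at 10 FPKM or more in D. santomea and under 1 FPKM in D. yakuba and the 5 relatives. For such genes the limma p-values rest on a spread of values near 0.

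Other mRNAs were higher in D. santomea than in D. yakuba and most of the relatives, where they were low. CG31388 had 1703 FPKM in D. santomea and 1.18 FPKM in D. yakuba, with 2.86 to 16.5 FPKM in the relatives, the largest difference with values above 0 in both species (9.62, limma SE 1.03, adjusted p = 0.00914). CG12772 had 822 FPKM in D. santomea and 17.1 FPKM in D. yakuba, a difference of 5.52 (limma adjusted p = 0.0401, which ranged from 0.0223 to 0.177 over the alternatives). CG13185 had 482 FPKM in D. santomea and 8.43 FPKM in D. yakuba, and was not fitted because 3 relatives lack a value. The ABC transporter gene CG10505 had 39.8 FPKM in D. santomea and 0.00576 FPKM in D. yakuba. The diacylglycerol kinase gene Dgk had 103 FPKM in D. santomea and 0.0433 FPKM in D. yakuba, but 263 FPKM in D. sechellia and under 0.02 FPKM in the other relatives. CG12970 had 34.4 FPKM in D. santomea and 0.0318 FPKM in D. yakuba, with at most 2.21 FPKM in the 4 relatives measured. The RNA-binding protein gene bru-3 had 57.6 FPKM in D. santomea and was listed at 0 in D. yakuba.

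Other genes high in D. santomea were those that D. yakuba lacked. The mRNA of Vps20, a subunit of the ESCRT-III membrane-sorting complex, had 64.4 FPKM in D. santomea and less than 0.001 FPKM in D. yakuba, and lay between 39.8 and 72.1 FPKM in the relatives (difference 6.04, limma SE 0.40, adjusted p = 0.00114). CG31917 had 49.4 FPKM in D. santomea, under 0.001 FPKM in D. yakuba and 44.5 to 63.0 FPKM in 4 relatives. The maltase gene Mal-A5 had 59.0 FPKM in D. santomea and 0.893 FPKM in D. yakuba. The sex determination gene tra, whose spliced product directs female development, had 37.9 FPKM in D. santomea and 0.875 FPKM in D. yakuba, against 8.69 to 21.8 FPKM in 4 relatives, and was the only one of 16 sex determination genes past 2-fold at stage 2. Values this close to 0 in an otherwise expressed gene can be failed estimates. D. yakuba alone was under 1 FPKM, with all others at 10 FPKM or more, for 6 genes, and D. santomea for 3, which were CG18292, CG13367 and CG7747 (named after their values were seen).

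Among maternal mRNAs lower in D. santomea, the largest difference with values above 0 in both species was that of MtnA, the copper-binding metallothionein A. It had 1.55 FPKM in D. santomea and 1354 FPKM in D. yakuba, a difference of -9.05. The relatives lay from 0 to 29.2 FPKM, so their own spread was large (limma SE 2.38, adjusted p = 0.294). Detoxification enzymes followed. The glutathione S-transferase gene GstD9 had 0.258 FPKM in D. santomea and 121 FPKM in D. yakuba, and the cytochrome P450 gene Cyp6g1, known in D. melanogaster for insecticide resistance, had 0.0344 FPKM in D. santomea and 67.5 FPKM in D. yakuba. The P450 genes Cyp6a20 (0.0967 FPKM in D. santomea, 64.1 FPKM in D. yakuba) and Cyp6d4 (0.17 FPKM in D. santomea, 49.2 FPKM in D. yakuba) were also nearly absent from D. santomea eggs. The mitochondrial ADP/ATP carrier gene Ant2 had 0.562 FPKM in D. santomea and 161 FPKM in D. yakuba, while its close paralog sesB had 1295 FPKM in D. santomea and 1018 FPKM in D. yakuba. Reads of such gene families (carriers, glutathione S-transferases, P450s) can be split between copies, so these values are uncertain. CG4198 (0.542 FPKM in D. santomea, 349 FPKM in D. yakuba) and CG33124 (0.366 FPKM in D. santomea, 239 FPKM in D. yakuba) stood between MtnA and Ant2 in size of difference.

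D. yakuba also had maternal mRNAs that none of the 5 relatives shared, 14 genes at 10 FPKM or more with all others, D. santomea included, under 1 FPKM. The chloride channel gene ClC-a was listed at 0 in D. santomea and had 70.2 FPKM in D. yakuba, with at most 0.0248 FPKM in the relatives (limma adjusted p = 0.000706). Gp150, a transmembrane glycoprotein with leucine-rich repeats, had 0.13 FPKM in D. santomea and 40.4 FPKM in D. yakuba (difference -5.19, limma SE 0.30, adjusted p = 0.000706). The gene knk, which acts in chitin organization, had 0.0263 FPKM in D. santomea and 29.1 FPKM in D. yakuba (difference -4.87, limma SE 0.28). The limma spread of ClC-a, Gp150 and knk was likewise that of values under 1 FPKM in the relatives. CG3502 had 0.0484 FPKM in D. santomea and 88.4 FPKM in D. yakuba, CG32037 had 0.0791 FPKM in D. santomea and 47.4 FPKM in D. yakuba, and CG3984, CG14551, CG9313 and CG9406, each listed at 0 in D. santomea, had 57.1, 43.0, 36.1 and 32.7 FPKM in D. yakuba. At stage 5 some of these differences stood and others did not. CG3502 had 10.8 FPKM in D. santomea and 507 FPKM in D. yakuba at stage 5, and CG14551 (1.75 FPKM in D. santomea, 49.3 FPKM in D. yakuba), CG9406 (2.81 FPKM in D. santomea, 64.7 FPKM in D. yakuba) and CG9313 (listed at 0 in D. santomea, 19.9 FPKM in D. yakuba) were also still lower in D. santomea. By contrast, Gp150 had 458 FPKM in D. santomea and 422 FPKM in D. yakuba, ClC-a had 0.0586 FPKM in D. santomea and 0.104 FPKM in D. yakuba, and CG32037 had 27.6 FPKM in D. santomea and 27.7 FPKM in D. yakuba. The mRNA of the serotonin receptor gene 5-HT2B was listed at 0 in D. santomea and had 56.0 FPKM in D. yakuba, and it was listed at 0 in D. melanogaster as well but had 34 to 53.3 FPKM in D. erecta, D. sechellia and D. mauritiana. Exact zeros of this kind, with 10 FPKM or more in the other species, were found for 15 genes in D. santomea and 16 in D. yakuba at stage 2.

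**Figure D1:**
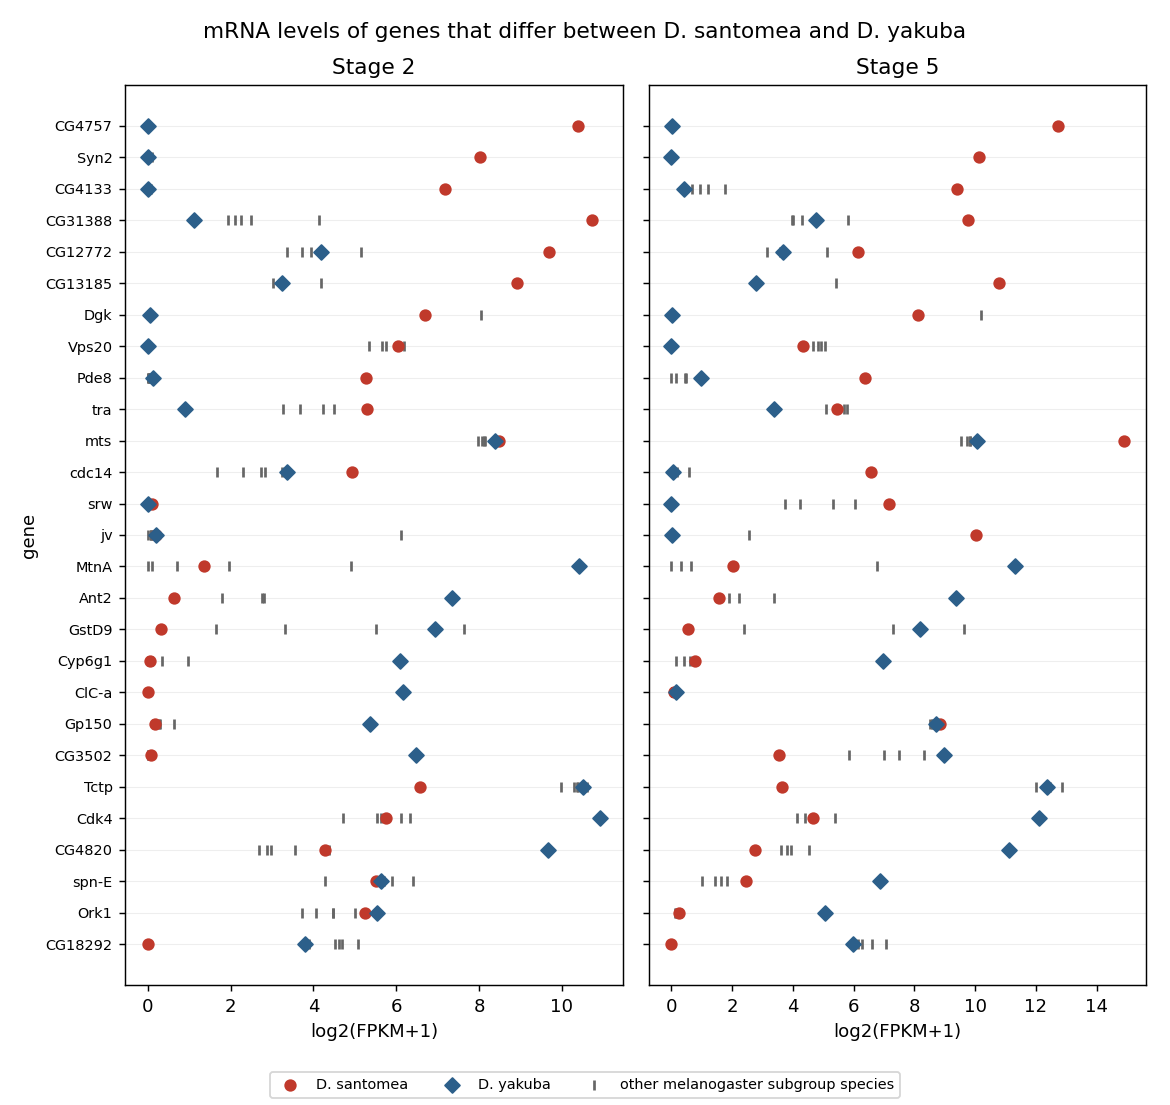
Levels of 27 genes on the log2(FPKM+1) scale at stage 2 (left) and stage 5 (right), with a circle for D. santomea, a diamond for D. yakuba and a tick for each other species of the melanogaster subgroup. CG4757 stands at 1333 and 6771 FPKM in D. santomea with D. yakuba and the relatives near 0, Tctp stands low in D. santomea alone, and ClC-a and Gp150 separate the species at stage 2 only.

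At stage 5 the species lay further apart. The median absolute difference was 0.51, and 913 genes (12.7%) were at least 2-fold higher and 827 (11.5%) at least 2-fold lower in D. santomea, with 281 (3.9%) and 212 (2.94%) past 4-fold. The limma fit, now without D. melanogaster and so against 4 relatives, called 11 genes higher (0.201%) and 6 lower (0.11%) among 5464 tested. With D. simulans, D. sechellia and D. mauritiana averaged to 1 value, the calls numbered 26 at stage 2, against 75, and 2 at stage 5, against 17. Over the alternatives the stage 5 limma adjusted p reached 0.094 for CG4757, 0.112 for Syn2, 0.163 for mts, 0.217 for Cdk4 and 0.227 for Ork1, and no more than 0.0356 for Tctp. With columns scaled to equal totals in place of equal medians, the median of all genes shifted by -0.23, and the counts were 618 higher and 1096 lower. The balance of directions at stage 5 therefore depends on the scaling, and directions of gene lists are given relative to all genes.

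Most of the largest differences of stage 2 stood at stage 5 too. CG4757 had 6771 FPKM in D. santomea and 0.0163 FPKM in D. yakuba (difference 12.72, limma SE 0.66, adjusted p = 0.00455), Syn2 had 1106 FPKM in D. santomea and was listed at 0 in D. yakuba, and CG4133 had 675 FPKM in D. santomea and 0.333 FPKM in D. yakuba. CG13185 had 1769 FPKM in D. santomea and 5.98 FPKM in D. yakuba, and Dgk had 276 FPKM in D. santomea and 0.0168 FPKM in D. yakuba. On the other side, MtnA had 3.12 FPKM in D. santomea and 2548 FPKM in D. yakuba, GstD9 had 0.467 FPKM in D. santomea and 293 FPKM in D. yakuba, Ant2 had 1.98 FPKM in D. santomea and 663 FPKM in D. yakuba, and Cyp6g1 had 0.73 FPKM in D. santomea and 125 FPKM in D. yakuba. Of the 355 genes higher in D. santomea at stage 2, 202 (56.9%) were higher at stage 5 as well, which is 22.1% of the stage 5 list. Of the 395 lower ones, 187 (47.3%) were lower at stage 5, which is 22.6% of that list. Only 7 genes were higher at stage 2 and lower at stage 5, and 13 the reverse.

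A few abundant mRNAs separated the species at both stages. Tctp, a growth regulator and one of the most abundant mRNAs of the embryo, had 95 FPKM in D. santomea and 1449 FPKM in D. yakuba at stage 2, and 11.6 FPKM in D. santomea and 5259 FPKM in D. yakuba at stage 5. The relatives had 1015 to 1546 FPKM at stage 2 and 4100 to 7452 FPKM at stage 5, so D. santomea stood apart (stage 5 difference -8.69, limma SE 0.50, adjusted p = 0.00455). For Cdk4, the kinase partner of Cyclin D, D. yakuba was the one apart. It had 53.2 FPKM in D. santomea and 1940 FPKM in D. yakuba at stage 2, and 24.4 FPKM in D. santomea and 4419 FPKM in D. yakuba at stage 5, with 16.6 to 41.1 FPKM in the relatives at stage 5 (difference -7.43, limma SE 0.67, adjusted p = 0.0177). CG4820 had 18.4 FPKM in D. santomea and 808 FPKM in D. yakuba at stage 2, and 5.77 FPKM in D. santomea and 2242 FPKM in D. yakuba at stage 5, with 11.4 to 22.0 FPKM in the relatives. At stage 2 CG4820 just missed the threshold (limma adjusted p = 0.0502), and Cdk4 passed it (limma adjusted p = 0.0181).

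Several of these genes have D. yakuba identifiers with close numbers and differed in opposite directions. CG4757, Tctp and CG4820 are GE26073, GE26077 and GE26078, and the D. santomea level of CG4757 at stage 5, 6771 FPKM, lies in the range that Tctp has in the relatives. Syn2 and Cdk4 are GE11802 and GE11805, with Syn2 at 1106 FPKM in D. santomea and Cdk4 at 4419 FPKM in D. yakuba. If such genes lie side by side or overlap, reads of one transcript can be assigned to another, so the levels of these 5 genes and the differences in them are uncertain, and this was not tested. In a count made after these values were seen, 77 of 472 genes past 4-fold at stage 5 (16.3%) had a gene past 4-fold in the opposite direction within 5 identifier numbers, and 68 (14.4%) had one in the same direction. Of all 6831 genes with such a number, 29.7% had a gene past 4-fold in either direction that near. The 29.7% covers both directions, so it is no direct background for the 16.3% or the 14.4%. A share for the opposite direction alone was not counted over all genes. The counts therefore do not show that opposite neighbours were more frequent than elsewhere. Close pairs included CG18292, which had under 0.001 FPKM in D. santomea and 62.1 FPKM in D. yakuba at stage 5, with CG15202 (30.8 FPKM in D. santomea, 0.51 FPKM in D. yakuba), and ZnT86D with GCC88. Other named genes in such pairs included CG14551 (with CG14550) and bou (with CG42308) at stage 2, and CG4133 (with rb) at stage 5. CG31917 (with Rtnl1) and CG13367 (with CG13369) were in such pairs at both stages. The levels of these genes are uncertain likewise.

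Other mRNAs had their largest difference at stage 5. The catalytic subunit of protein phosphatase 2A, mts, had 356 FPKM in D. santomea and 334 FPKM in D. yakuba at stage 2, but 30200 FPKM in D. santomea and 1058 FPKM in D. yakuba at stage 5, with 743 to 915 FPKM in the relatives (difference 4.85, limma SE 0.41, adjusted p = 0.0175). The phosphatase gene cdc14 had 29.5 FPKM in D. santomea and 9.33 FPKM in D. yakuba at stage 2, and 95 FPKM in D. santomea and 0.0546 FPKM in D. yakuba at stage 5 (stage 5 difference 6.52, limma SE 0.55, adjusted p = 0.0175). CG15661 had 77.6 FPKM in D. santomea and 0.309 FPKM in D. yakuba at stage 5. The javelin gene jv, which shapes bristle actin bundles, had 1056 FPKM in D. santomea and 0.0176 FPKM in D. yakuba, CG5171 had 416 FPKM in D. santomea and 1.48 FPKM in D. yakuba, and srw, a secreted protein of Dpp signalling, had 141 FPKM in D. santomea and under 0.001 FPKM in D. yakuba. The relatives had 0 to 4.96 FPKM of jv and 1.40 to 17.6 FPKM of CG5171 at stage 5. They had 12.3 to 65.2 FPKM of srw, so for srw the value of D. yakuba was the unusual one. Neither jv, CG5171 nor srw was called by limma at stage 5. The largest values of the comparison, 13484400 FPKM for CG32017 and 8373560 FPKM for the homeodomain gene ct in D. santomea at stage 5, against 0.254 and 0.0911 FPKM in D. yakuba, lie far above any other value of the 4 columns and cannot be read as mRNA levels.

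**Figure D2:**
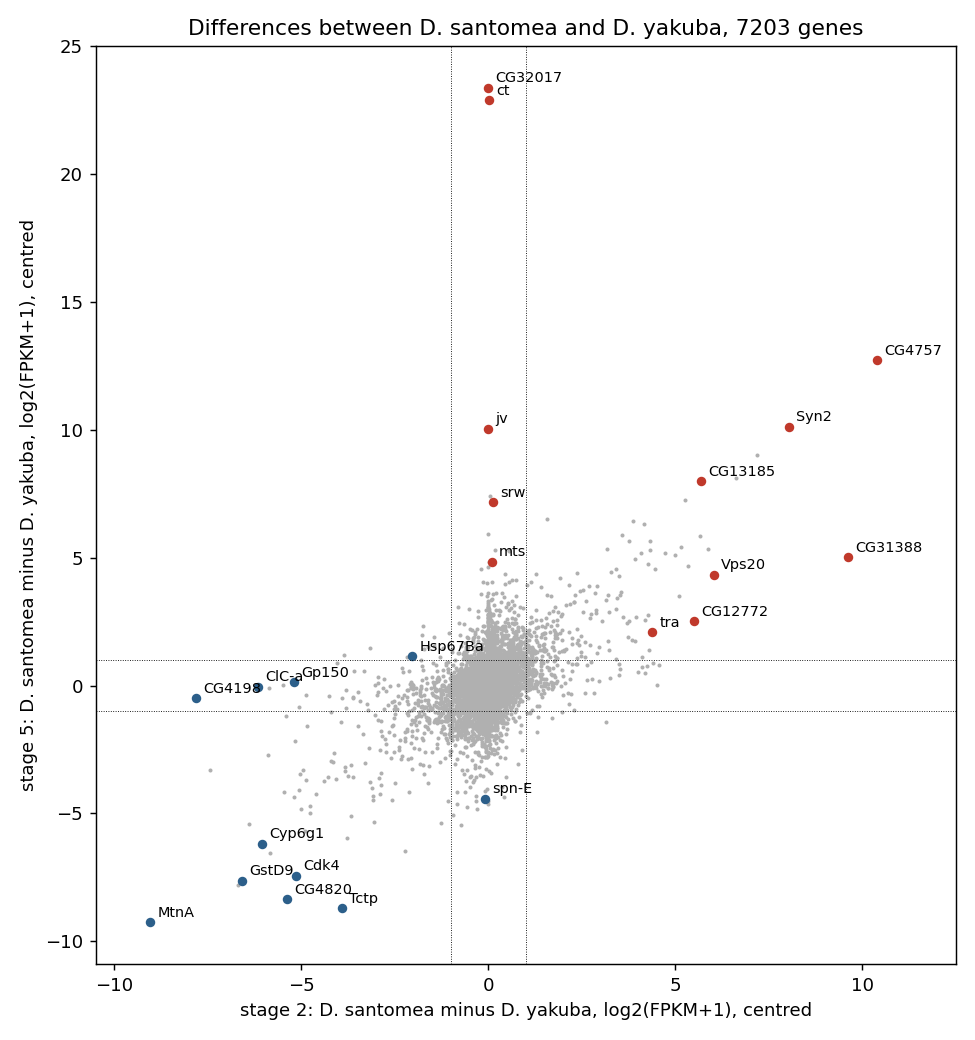
Difference D. santomea minus D. yakuba on the centred log2(FPKM+1) scale at stage 2 (horizontal axis) and stage 5 (vertical axis) for the 7203 genes, with 23 named genes labelled and dotted lines at 2-fold. Genes such as CG4757 and MtnA lie far out along the diagonal, ClC-a and Gp150 near the horizontal axis, and mts, jv and spn-E near the vertical axis, with CG32017 and ct alone above 20.

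The third comparison asked whether mRNAs changed differently from stage 2 to stage 5. The stage change was at least 2-fold more positive in D. santomea for 862 genes (12%) and more negative for 735 (10.2%), with 224 (3.11%) and 158 (2.19%) past 4-fold. The limma fit of the stage change called 1 gene higher (0.0183%), CG32017, and none lower (0%) among 5464, with 305 genes at an unadjusted p under 0.05. With equal column totals, the counts were 588 and 1131. Sip1, a protein that binds septins, had 38.6 FPKM in D. santomea and 33.8 FPKM in D. yakuba at stage 2, and 125 FPKM in D. santomea and 2.25 FPKM in D. yakuba at stage 5, so that the mRNA was largely lost from D. yakuba (difference of the stage change 5.10, limma adjusted p = 0.0722). The Ly6 protein gene bou, needed for septate junctions, had 1.12 FPKM in D. santomea and 34.3 FPKM in D. yakuba at stage 2, and 96.5 FPKM in D. santomea and 53.1 FPKM in D. yakuba at stage 5.

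Some mRNAs were lower in D. santomea at stage 5 after like levels at stage 2. The potassium channel gene Ork1 had 36.7 FPKM in D. santomea and 45.7 FPKM in D. yakuba at stage 2, and 0.188 FPKM in D. santomea and 32.6 FPKM in D. yakuba at stage 5, with 0.0947 to 0.265 FPKM in the relatives (stage 5 difference -4.81, limma SE 0.46, adjusted p = 0.0194). Gs1l had 35.1 FPKM in D. santomea and 58.7 FPKM in D. yakuba at stage 2, and 3.88 FPKM in D. santomea and 217 FPKM in D. yakuba at stage 5. The zinc transporter gene ZnT86D had 46.1 FPKM in D. santomea and 68.7 FPKM in D. yakuba at stage 2, and 12.9 FPKM in D. santomea and 381 FPKM in D. yakuba at stage 5, with 9.65 to 18.3 FPKM in the relatives, but its identifier number is close to that of GCC88 and its level is uncertain. For the endosomal protein gene Rbsn-5 the species apart was D. santomea, with 0.353 FPKM at stage 5, against 20.6 FPKM in D. yakuba and 13.8 to 27.4 FPKM in the relatives. The caspase gene Strica was already lower in D. santomea at stage 2, with 5.53 FPKM against 29.9 FPKM in D. yakuba (difference -2.24). At stage 5 Strica had 0.0476 FPKM in D. santomea and 92.4 FPKM in D. yakuba. In a count made after these values were seen, 138 genes had at least 10 FPKM at stage 2 and less than 5 FPKM at stage 5 in each of D. erecta, D. simulans, D. sechellia and D. mauritiana. At stage 5, 8 of them were at 10 FPKM or more in D. santomea and 15 in D. yakuba, and their median was 1.63 FPKM in D. santomea and 1.78 FPKM in D. yakuba.

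The piRNA pathway, which silences transposons in the germ line through small RNAs bound to Piwi proteins, held some of these mRNAs. Of 28 piRNA pathway genes, 1 was at least 2-fold higher and 1 lower in D. santomea at stage 2, and 6 were higher and 7 lower at stage 5, beside 4.93% and 5.48% of all genes at stage 2 and 12.7% and 11.5% at stage 5. The Tudor-domain helicase spn-E had 45.0 FPKM in D. santomea and 48.4 FPKM in D. yakuba at stage 2, and 4.46 FPKM in D. santomea and 117 FPKM in D. yakuba at stage 5 (difference -4.42, limma SE 0.82, adjusted p = 0.172), with 1.03 to 2.60 FPKM in the relatives. Another Tudor-domain helicase, BoYb, had 34.2 FPKM in D. santomea and 25.7 FPKM in D. yakuba at stage 2, and 4.19 FPKM in D. santomea and 107 FPKM in D. yakuba at stage 5, but the relatives ranged from 0.0821 to 62.1 FPKM. The Tudor-domain gene qin had 2.94 FPKM in D. santomea and 46.6 FPKM in D. yakuba at stage 5. The 6 higher ones included papi and zuc. The mRNA of papi, a mitochondrial Tudor-domain protein, had 9.44 FPKM in D. santomea and under 0.001 FPKM in D. yakuba at stage 5, and that of the nuclease zuc, named after its values were seen, 144 FPKM in D. santomea and 26.2 FPKM in D. yakuba. The median difference of the list at stage 5 was -0.22, against 0.04 over all genes, and limma called none of the 21 genes it tested.

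**Figure D3:**
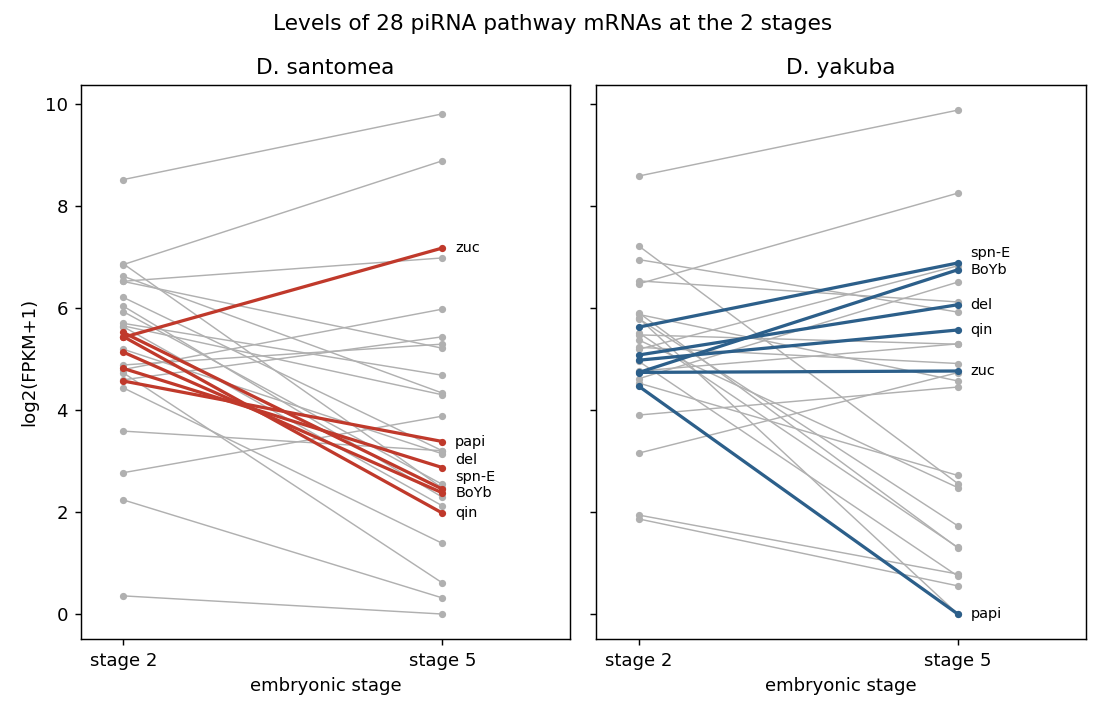
Levels of the 28 piRNA pathway mRNAs on the log2(FPKM+1) scale at stage 2 and stage 5, with a line per gene, in D. santomea (left) and D. yakuba (right). The lines of spn-E, BoYb, qin and del run down in D. santomea and up in D. yakuba, zuc runs up in D. santomea, and papi drops to near 0 in D. yakuba. The identifier number of del is close to that of E2f2, which differed in the opposite direction at stage 5, so the level of del is uncertain.

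Germ plasm and maternal axis mRNAs past 2-fold at stage 2 were counted beside 4.93% of all genes higher and 5.48% lower. Of 29 maternal axis genes, 1 was higher and 1 lower at stage 2, and of 23 germ plasm genes 1 was higher and none lower, with the Piwi-family gene aub at 97.8 FPKM in D. santomea and 43.5 FPKM in D. yakuba. At stage 5, 5 germ plasm genes were at least 2-fold higher and 2 lower in D. santomea, beside 12.7% and 11.5% of all genes. The lower ones were BicD (3.37 FPKM in D. santomea, 11.1 FPKM in D. yakuba) and tud (8.21 FPKM in D. santomea, 20.9 FPKM in D. yakuba). The list median was -0.13, against 0.04 over all genes. With equal column totals 5 genes were higher and 5 lower, so no direction is given for this list. In whole embryos, fewer cells of a type and less RNA per cell cannot be told apart. The pole cell gene pgc, which represses transcription in germ cells, had 486 FPKM in D. santomea and 453 FPKM in D. yakuba at stage 2, and 119 FPKM in D. santomea and 27.4 FPKM in D. yakuba at stage 5. The chaperone mRNA Hsp83, degraded everywhere but the pole plasm in D. melanogaster, had 346 FPKM in D. santomea and 308 FPKM in D. yakuba at stage 2, and 360 FPKM in D. santomea and 102 FPKM in D. yakuba at stage 5 (difference 1.82, limma adjusted p = 0.286). The relatives had 267 to 415 FPKM of Hsp83 at stage 5, so D. yakuba was the species apart. The germline gap junction gene zpg had 6.14 FPKM in D. santomea and 1.51 FPKM in D. yakuba at stage 5. The maternal axis gene exu, needed to localize bcd mRNA, had 334 FPKM in D. santomea and 173 FPKM in D. yakuba at stage 2. This difference of 0.95 was under 2-fold, so exu is not the higher gene counted at that stage. At stage 5 exu had 7.67 FPKM in D. santomea and 2.58 FPKM in D. yakuba (difference 1.29). Among 25 cell cycle regulators the string phosphatase gene stg was the only one past 2-fold at stage 2. It had 149 FPKM in D. santomea and 305 FPKM in D. yakuba, a difference of -1.02. With equal column totals none of that list was past 2-fold at stage 2. At stage 5 stg had 22.5 FPKM in D. santomea and 82.4 FPKM in D. yakuba. It was joined at stage 5 by the mitotic cyclin CycA, with 530 FPKM in D. santomea and 1265 FPKM in D. yakuba.

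The counts of zygotic patterning genes past 2-fold at stage 5 stand beside 12.7% of all genes higher and 11.5% lower. Of 16 gap and terminal genes, 1 was past 2-fold at stage 5, hkb, with 42.7 FPKM in D. santomea and 20.8 FPKM in D. yakuba, and its difference of 1.02 came under 1 with quantile normalization (0.82) and equal totals (0.75). Of 11 pair-rule genes, 2 were higher in D. santomea. They were prd, with 344 FPKM in D. santomea and 129 FPKM in D. yakuba, and ftz, with 478 FPKM in D. santomea and 216 FPKM in D. yakuba, whose difference of 1.16 came under 1 with quantile normalization (0.84) and equal totals (0.89). None of 11 segment polarity genes was past 2-fold. Of 28 zygotic dorsoventral genes, 3 were higher and 1 lower. The Wnt-family inhibitor of Toll signalling wntD had 346 FPKM in D. santomea and 76.0 FPKM in D. yakuba, the BMP ligand gene scw had 6.80 FPKM in D. santomea and 0.247 FPKM in D. yakuba, and the GATA cofactor gene ush had 75.1 FPKM in D. santomea and 29.1 FPKM in D. yakuba. Of 9 cellularization genes, 2 were higher and 2 lower, with 1 higher and 2 lower under quantile normalization and under equal totals. The regulator slam had 15.5 FPKM in D. santomea and 63.5 FPKM in D. yakuba, against 56.7 to 159 FPKM in the relatives, and Bro, a partner of the Runt transcription factors, had 215 FPKM in D. santomea and 62.7 FPKM in D. yakuba. None of the genes of these lists was called by limma, and the spread of the relatives was wide for several, as for scw with 0.92 to 50.04 FPKM.

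Among the lists with 9 or more genes, detoxification genes were most often past 2-fold at stage 2 and at stage 5. Of 95 with values, 46 reached 1 FPKM, of which 6 were higher and 12 lower in D. santomea at stage 2 and 13 higher and 14 lower at stage 5, beside the 4.93% and 5.48% of all genes at stage 2 and 12.7% and 11.5% at stage 5. They thus differed in both directions, with a median difference of 0.00 at stage 2 and -0.21 at stage 5. Genes entered at 1 FPKM or more in any column, so a gene can be counted through its level in D. santomea or D. yakuba alone. Of all genes with a mean of 1 to 10 FPKM, 24.8% were past 2-fold at stage 2 and 38.0% at stage 5. The list was not compared with genes of like level, so its rank is one of measured values. Of 33 genes that limma tested at stage 2, 1 was called, Ugt86Dc. It was higher in D. santomea, with 20.5 FPKM against 0.136 FPKM in D. yakuba at stage 2. The higher ones also included GstS1, with 72.0 FPKM in D. santomea and 5.75 FPKM in D. yakuba at stage 2. At stage 5 GstS1 had 108 FPKM in D. santomea and 9.24 FPKM in D. yakuba. GstD9, which led the lower ones, was high in D. mauritiana (199 FPKM at stage 2) and D. sechellia (44.5 FPKM) as well as in D. yakuba. Of 17 heat shock and chaperone genes, 1 was higher and 3 lower in D. santomea at stage 2, and 5 were higher and 1 lower at stage 5. The small heat shock gene Hsp67Ba changed side, with 143 FPKM in D. santomea and 592 FPKM in D. yakuba at stage 2, and 21.6 FPKM in D. santomea and 9.22 FPKM in D. yakuba at stage 5. The small heat shock gene Hsp23 had 97.7 FPKM in D. santomea and 21.7 FPKM in D. yakuba at stage 5. Of 12 immune genes, TotM, a secreted stress protein of the Turandot family, had 0.655 FPKM in D. santomea and 36.3 FPKM in D. yakuba at stage 5.

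Lists of housekeeping complexes were also counted, beside 12.7% of all genes higher and 11.5% lower at stage 5. Of 69 mitochondrial ribosomal protein genes, 14 were at least 2-fold higher and none lower in D. santomea, with a list median of 0.47, after 4 and 4 at stage 2 with a median of 0.11. The largest of these was mRpS33, with 198 FPKM in D. santomea and 51.0 FPKM in D. yakuba at stage 2, and 749 FPKM in D. santomea and 113 FPKM in D. yakuba at stage 5. With equal column totals, 11 were higher and 1 lower, and the list's median stood 0.40 above that of all genes. The cytoplasmic ribosomal protein genes, whose reads near-identical copies can share, had a median of -0.25 at stage 2 and 0.28 at stage 5, and 5 of 77 were higher and 2 lower at stage 5. Under quantile normalization that list's stage 5 median was -0.13, so no direction is given for it. RpL39 had 24108 FPKM in D. santomea and 6304 FPKM in D. yakuba at stage 5. Of 22 nucleoporin genes, none was higher and 5 were lower at stage 5, with a median of -0.56, after 1 and 1 at stage 2. Nup107 had 31.6 FPKM in D. santomea and 91.2 FPKM in D. yakuba, and Nup58 had 70.1 FPKM in D. santomea and 196 FPKM in D. yakuba. Of 29 DNA replication genes, 2 were higher and 7 lower at stage 5, with a median of -0.56 after -0.01 at stage 2. The origin recognition subunit Orc5 had 4.98 FPKM in D. santomea and 40.1 FPKM in D. yakuba, and the polymerase gene DNApol-delta had 2.70 FPKM in D. santomea and 15.4 FPKM in D. yakuba. The medians of both lists stayed negative under quantile normalization and equal totals (-0.51 to -0.82). None of the genes of these lists was called by limma at stage 5. Respiratory chain genes, 7 higher and 7 lower of 65 at stage 5, went both ways, with ND-MLRQ at 2494 FPKM in D. santomea and 662 FPKM in D. yakuba and ATPsynO at 366 FPKM in D. santomea and 1544 FPKM in D. yakuba. Of 33 proteasome genes, 3 were higher and none lower, among them the ATPase subunit Rpt3 with 177 FPKM in D. santomea and 54.3 FPKM in D. yakuba. Of 18 heterochromatin and hybrid incompatibility genes, 1 was higher and 2 lower at stage 5. The centromeric histone gene cid had 44.5 FPKM in D. santomea and 18.8 FPKM in D. yakuba, a difference of 1.22 that came under 1 with quantile normalization (0.98) and equal totals (0.95). In the same list, gfzf, a hybrid incompatibility gene between D. melanogaster and D. simulans, had 56.3 FPKM in D. santomea and 130 FPKM in D. yakuba.

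**Figure D4:**
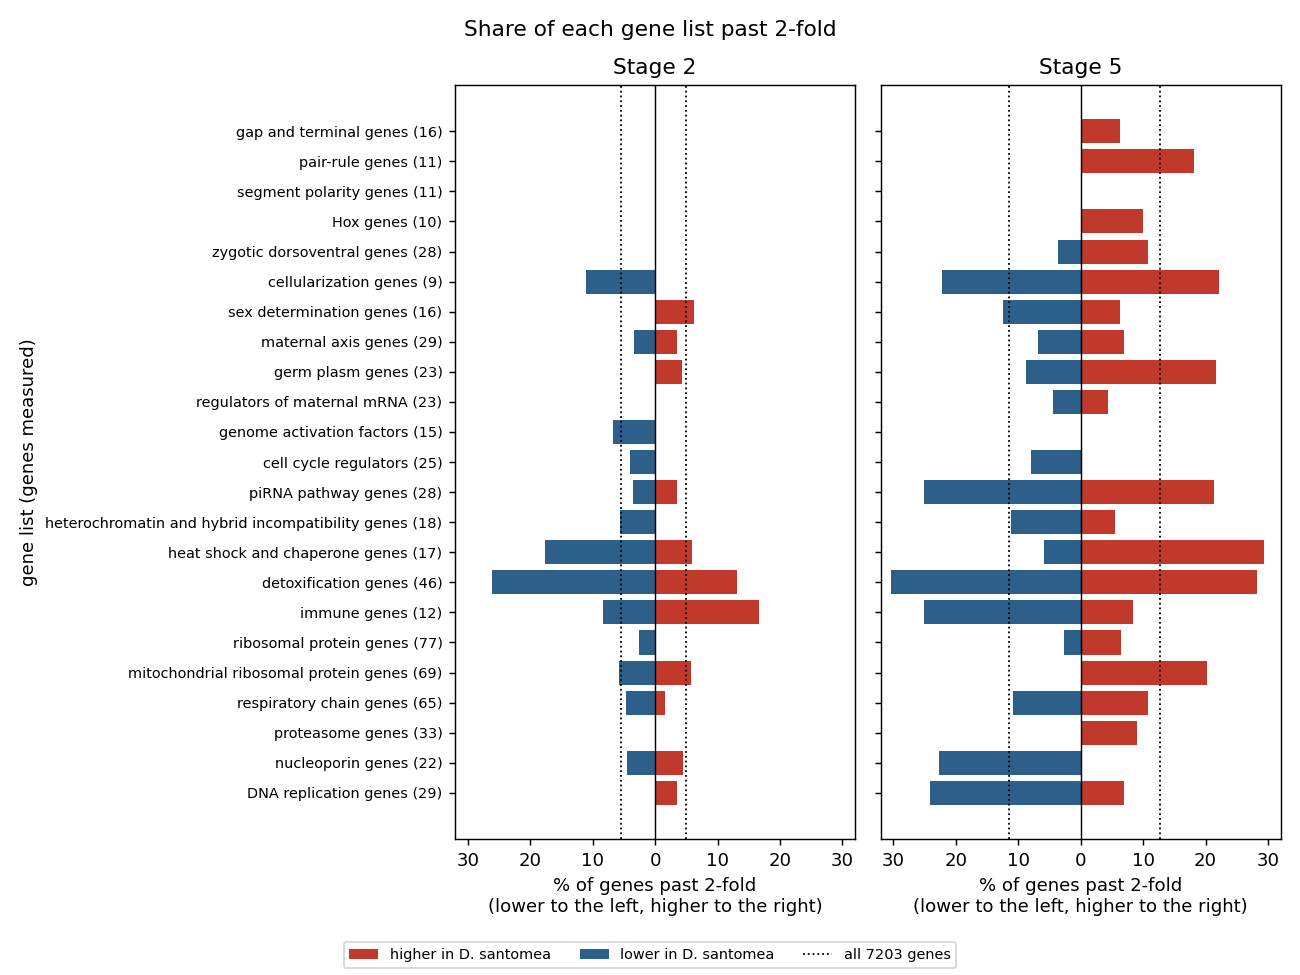
Share of each gene list (rows, with the number of genes measured) that was at least 2-fold higher (bars to the right) or lower (bars to the left) in D. santomea at stage 2 and stage 5, for lists with 9 or more genes. Dotted lines mark the shares over all 7203 genes, 4.93% and 5.48% at stage 2 and 12.7% and 11.5% at stage 5. The detoxification bars exceed them on both sides at both stages, without matching for the level of the genes.

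Embryo age within a stage can move genes together. In each of D. erecta, D. simulans, D. sechellia, D. mauritiana and D. ananassae, 167 genes rose by at least 3 on the log2 scale between the stages. Their median level at stage 5 was 97.4 FPKM in D. santomea and 83.5 FPKM in D. yakuba, and 113 of 167 were higher in D. santomea, with a median difference of 0.21. Over all genes 3791 of 7203 were higher at stage 5, with a median of 0.04. Equal column totals shifted the median of all genes by -0.23, so the 0.21 is read only relative to all genes. The 76 genes that fell by at least 3 in the same species had a median difference of -0.14 at stage 2 and 0.15 at stage 5. These values are under 2-fold, and what share of the stage 5 differences goes with exact age was not tested.

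Levels in another relative were set beside those of the pair. Of 348 genes higher in D. santomea at stage 2 with a D. erecta value, the D. erecta level was nearer to that of D. santomea for 136 (39.1%), and of 387 lower ones for 236 (61.0%). In both directions the D. erecta level was thus more often near the lower level of the pair. Genes entered at 1 FPKM or more in any column of the pair, and those counted here differed by at least 2-fold. No level was required of D. erecta or D. melanogaster, so this selection can itself favour a level near the lower species. The shares therefore cannot tell in which species a level had changed. At stage 5 the shares were 381 of 892 (42.7%) and 458 of 815 (56.2%). With D. melanogaster at stage 2 in the place of D. erecta, D. santomea was nearer for 136 of 339 (40.1%) and 225 of 371 (60.6%). The median absolute difference from D. melanogaster at stage 2 was 0.34 for D. santomea and 0.33 for D. yakuba, and the part of the mixed-in D. melanogaster RNA in single genes was not tested.

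The pair had the smallest share of genes past 2-fold among those set side by side. Over 4081 genes with stage 2 values in all the species used, 9.46% differed by at least 2-fold between D. santomea and D. yakuba, 12.4% between D. sechellia and D. simulans, 12.9% between D. persimilis and D. pseudoobscura, 15% between D. mauritiana and D. simulans and 18% between D. miranda and D. pseudoobscura. D. erecta, the next relative, differed from D. santomea in 15.7% and from D. yakuba in 14.9% of genes. Over 4736 genes at stage 5 the share was 19.3% between D. santomea and D. yakuba, close to the 20.7% between D. sechellia and D. simulans and between D. persimilis and D. pseudoobscura, and below the 29.4% between D. erecta and D. santomea and the 30.6% between D. erecta and D. yakuba. In each of these pairs more genes differed at stage 5 than at stage 2. Pairs share species, and the differences between the shares were not tested. The values of D. santomea and D. yakuba were tied to the same D. yakuba gene identifiers. The part of this in the smaller share of the pair was not tested, so the ranking is one of measured values.

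**Figure D5:**
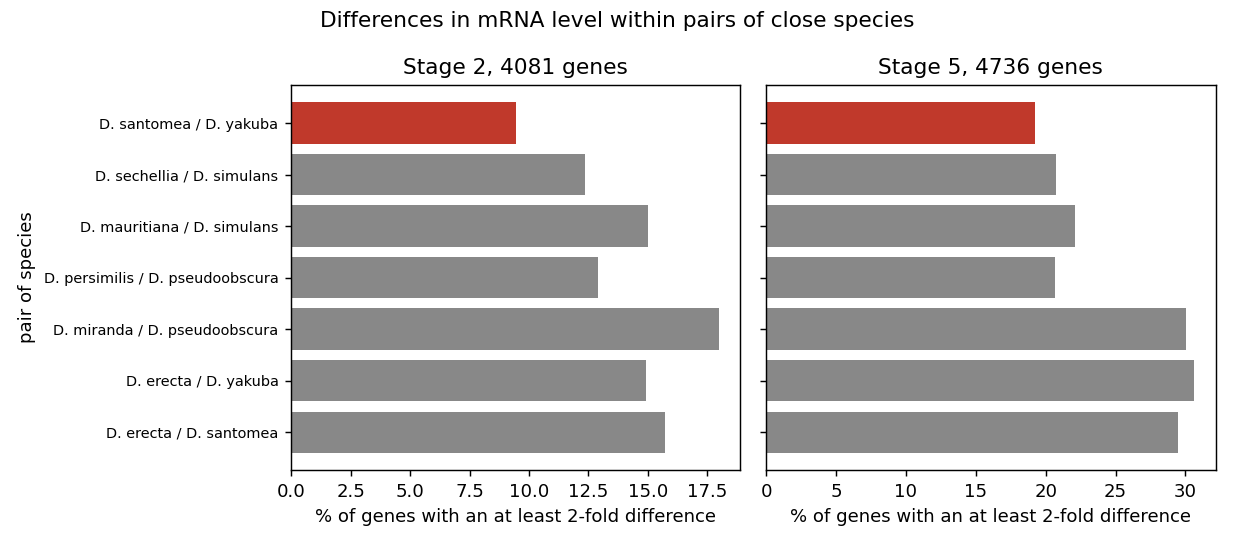
Share of genes with an at least 2-fold difference in pairs of close species at stage 2 (4081 genes) and stage 5 (4736 genes), by the same centring. The bar of D. santomea and D. yakuba, whose values were tied to the same gene identifiers, is the shortest at both stages, at 9.46% and 19.3%.

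The differences also varied with the level of the mRNA and with its class. Genes with a mean of 1 to 10 FPKM over the 4 columns were past 2-fold at stage 2 in 24.8% of 1125 genes, those of 10 to 100 FPKM in 8.10% of 4335, and those of 1000 FPKM or more in 5.13% of 117. At stage 5 the same classes had 38.0%, 20.8% and 15.4%. The 463 genes with a mean under 1 FPKM had 7.99% at stage 2 and 39.3% at stage 5. The scale used understates changes near 1 FPKM, so their stage 2 share is not comparable with the others. Of 3905 genes at 1 FPKM or more at both stages in each of D. erecta, D. simulans, D. sechellia and D. mauritiana, 5.92% were past 2-fold at stage 2 and 18.7% at stage 5. Of 261 genes that these species express only at stage 5, 30.3% were past 2-fold at stage 5, 53 higher and 26 lower in D. santomea. Of 185 genes under 1 FPKM at both stages in those 4 species, 54.1% were past 2-fold at stage 5, though such genes entered the comparison only because one of the pair expressed them.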

How the data were processed

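Single embryos of 14 Drosophila species were sequenced by the authors. Per the submitters' processing notes, the tools were cutadapt, TopHat2, Cufflinks, Cuffnorm and Cuffdiff, with versions and builds not given in the sources used here. The deposited values are taken as FPKM, from these tools and the range of the values, with 1 value per gene, species and stage. Library depth is unknown, so no counting interval can be given. Column names of the wider table sit 1 place off their values and were read accordingly. In it, all 3764 genes with an ortholog in every species had the same values as in the narrower table. Of the columns, 2 (D. melanogaster stage 5) were tied to no sample and left out. Gene symbols were kept as deposited (5977 of the 7203 match current ones).

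Values were taken as log2(FPKM+1), with a pseudocount of 1, and each column was centred on its median over genes at 1 FPKM or more in any of 4 columns. This scale understates changes of mRNAs near 1 FPKM. Differences are D. santomea minus D. yakuba, counted past 1 (2-fold) and 2 (4-fold). limma 3.58.1 (R 4.3.3; eBayes with trend, two-sided, Benjamini-Hochberg) took its spread from 5 (stage 2) or 4 related species, and was tested on simulated data. Each species' values are assumed to vary like those of the relatives; no p-value measures the spread between embryos.

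Named genes were the 10 largest differences each way per comparison among values above 0 with 10 FPKM or more, the 5 highest genes listed at 0 in one species, the 5 largest at both stages, up to 10 smallest limma p, the 4 largest per gene list, and landmarks. The members and lists were chosen with earlier results of these data known. A value of exactly 0, or below 0.001, can be a failed estimate. Chromosome arms were not analysed here.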

Additional observations from a re-analysis of the deposited data

Results flagged for a closer look

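The stage change of CG32017 differed between the species in the limma fit, by 23.37 on the log2(FPKM+1) scale (adjusted p = 0.00175, with 0.000102 to 0.0499 over the 4 alternatives that could test it). It was listed at 0 at stage 2 in both species, and had 13484400 FPKM in D. santomea and 0.254 FPKM in D. yakuba at stage 5, a value of D. santomea that cannot be read as a level.

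Of the genes named by rule, 2 differed by at least 2-fold in opposite directions at the 2 stages. Hsp67Ba was lower in D. santomea at stage 2 (-2.03) and higher at stage 5 (1.16), and mRpL9 was lower at stage 2 (-1.44) and higher at stage 5 (1.54). The limma test of the difference between the stages gave an adjusted p of 0.999 for Hsp67Ba and 0.538 for mRpL9, so neither reversal stood out from the spread of the related species. The mRNA of mRpL9 had 8.56 FPKM in D. santomea and 25.1 FPKM in D. yakuba at stage 2, and 28.6 FPKM in D. santomea and 9.29 FPKM in D. yakuba at stage 5.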

How the results depend on the processing

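No paired analysis was possible because the embryos of a group stand in 1 column, which carries no replicate number, and for the same reason no embryo could be left out. Counts past 2-fold fell to 447 (stage 2), 1051 (stage 5) and 859 (stage change) with a pseudocount of 5, to 381, 1042 and 897 among the 5454 genes at 1 FPKM or more in all 4 columns, and to 283, 698 and 662 among the 3497 genes with orthologs in all 14 species; these filters test fewer genes. The main counts were 750, 1740 and 1597. The share of higher genes was 47.3% at stage 2 and 54.0% in the stage change, but 60.3% (484 higher, 319 lower) and 35.4% (606 and 1107) without the filter on low values, and at stage 5 it was 52.5%, but 36.1% with equal column totals, a setting chosen after seeing the data. The limma calls numbered 75 at stage 2, 17 at stage 5 and 1 in the stage change. With the simulans complex averaged to 1 value they were 26, 2 and 3. With 1 FPKM or more in all columns of the fit they were 2, 4 and 3, and only 11 of the 75 stage 2 genes could then be tested. A pseudocount of 0.1 gave 9 calls at stage 5 and 3 in the stage change, and quantile normalization gave 4 in the stage change. The cause of these moves was not tested, other than the smaller number of genes. Of the values past 2-fold of named genes under the 9 alternatives, 2211 kept their side of 2-fold, 141 came under it and 2 changed sign, which were the stage change of CG15533 (-0.21 with equal totals) and that of TotM (0.68 with a pseudocount of 0.1).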
